A study of Ovis aries with 54 samples.

Results

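The enzymes that make cholesterol and fatty acids, and a few genes that control them, were followed in sheep lung. They were chosen by symbol: 32 genes were listed, and 29 of them were among the 30184 genes with counts. Of these, 16 of 18 listed genes are enzymes of sterol synthesis, 9 of 9 are enzymes of fatty acid synthesis, elongation or desaturation, and 4 of 5 control the pathway or carry sterol within the cell. CYP51A1, EBP and SCAP were not analysed here. The choice was made with earlier results of these data known, so the lists got no test.

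The series models chronic obstructive pulmonary disease in sheep (Ovis aries). Its groups were 7 lung pieces exposed to porcine elastase, which cuts elastin, together with lipopolysaccharide (LPS), a bacterial cell wall component (PE/LPS), 7 pieces exposed to saline in the same 7 sheep (numbers 1, 2, 8, 11, 14, 15 and 16), and 4 control pieces from other sheep (numbers 7, 9, 10 and 18). Each piece was sequenced as 3 libraries, so that 54 libraries stood for 18 pieces, and the piece was the unit of each comparison. Not given in the sources used here were doses, times, ages, the handling of the control sheep and the meaning of a letter code in the titles. That code, LC or RA, was LC in every PE/LPS piece and RA in every saline piece. Treatment and code therefore cannot be told apart in the exposed sheep. Among the control pieces, sheep 10 and 18 were LC and sheep 7 and 9 were RA.

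Cholesterol is built from acetyl-CoA through mevalonate, isoprenoid units, squalene and lanosterol, and fatty acids are built from the same acetyl-CoA through malonyl-CoA. Both arms are switched on by the sterol regulatory element binding proteins encoded by SREBF2, which acts mainly on sterol genes, and SREBF1, which acts mainly on fatty acid genes. INSIG1 holds them in the endoplasmic reticulum when sterol is plentiful, and the sterol genes usually move together for that reason. In the lung, alveolar type 2 cells use fatty acids for the phospholipids of surfactant, which also contains cholesterol.

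Summed over its libraries, a PE/LPS piece held 9653262 to 37777824 counts, a saline piece 12760040 to 34762189 and a control piece 23106036 to 41946705. A single library, from the PE/LPS tissue of sheep 11, held 115109 counts, and the other 53 held 2777537 to 16215732. The tissue label reads only "tissue", while the design text speaks of lung lobes. The type 2 cell marker SFTPC had a median of 21060 counts per 1000000 (CPM) in PE/LPS, 47875 CPM in saline and 40632 CPM in control pieces, whereas 4 adipocyte markers together stayed between 0.190 and 15.7 CPM over all pieces. The PE/LPS pieces of sheep 2, 8 and 11 and the control piece of sheep 9 have titles with extra characters at the end of the code. These 3 PE/LPS pieces all lay below the other PE/LPS pieces in 24.1% of the 29 genes, against 16.7% of all genes tested within sheep. They all lay above them in 6.90%, against 10.3% of all genes. In bulk tissue, fewer cells of a type and less RNA per cell cannot be told apart. All 29 genes passed the filter on low counts in each comparison.

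PE/LPS pieces were first set against the saline pieces of the same sheep. SQLE (squalene epoxidase) and FASN (fatty acid synthase) had the lowest fold changes of their arms and STARD4, a sterol carrier, the highest of all 29, but none of the genes passed the test. The sterol enzymes were divided, with 8 positive and 8 negative log2 fold changes and a median of -0.15, and the fatty acid enzymes had 5 positive and 4 negative values and a median of 0.02. The median over all genes tested was -0.03. In the quasi-likelihood test of edgeR, with p adjusted by Benjamini-Hochberg at 0.05, 0 of the 29 genes and 0 of 16944 genes in all (0%) passed, and the smallest adjusted p among the 29 was 0.771. At an unadjusted p under 0.05 stood 3 of the 29 (10.3%), against 976 of all genes tested (5.76%). DESeq2 called 47 genes and limma voom 0, none of them among the 29.

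SQLE, which carries out the first step after squalene, ranged from 15.7 to 48.9 CPM with a median of 18.9 in PE/LPS pieces and from 31 to 55.1 CPM with a median of 41.2 in saline pieces. The control pieces of sheep 7, 9, 10 and 18 had 28.9, 24.5, 31.5 and 28.5 CPM. Most PE/LPS pieces thus lay below the saline range, but those of sheep 1 and 14 lay inside it. The mean of the PE/LPS pieces was 26.5 ± 13.3 CPM, that of the saline pieces 42.3 ± 9.20 CPM (SD, n = 7 each) and that of the control pieces 28.3 ± 2.86 CPM (n = 4). Within sheep the log2 fold change was -0.79 (SE 0.31, 95% interval -1.39 to -0.19 by a normal quantile, edgeR p = 0.0237, adjusted p = 0.771), and SQLE was lower in PE/LPS in 6 of 7 sheep. Without sheep 2, 8 and 11, whose PE/LPS pieces have the longer titles, it was -0.32 (SE 0.39).

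HMGCS1, which makes HMG-CoA at the entry of the mevalonate pathway, did not share that pattern. Its level was 28.2 to 65.8 CPM with a median of 45.8 in PE/LPS, 34.3 to 56.6 CPM with a median of 40.8 in saline, and 29.3, 34.4, 43.8 and 31.7 CPM in the control pieces of sheep 7, 9, 10 and 18. The groups overlapped throughout. The within-sheep log2 fold change was 0.11 (SE 0.19, interval -0.27 to 0.49, higher in 5 of 7 sheep).

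Of the other early steps, 5 had negative and 2 positive values, and none passed. The log2 fold change of MVK, the mevalonate kinase, was -0.53 (SE 0.31) and that of MVD, a later decarboxylase, -0.41 (SE 0.24), each lower in 6 of 7 sheep. PMVK, the phosphomevalonate kinase between them, was at -0.44 (SE 0.51) with a level of 0.521 to 4.99 CPM in PE/LPS, where few counts limit the precision. FDPS, which joins isoprenoid units, and FDFT1, which makes squalene, were at -0.39 (SE 0.30) and -0.31 (SE 0.29). IDI1, the isomerase that precedes FDPS, was at 0.11 (SE 0.27), and ACAT2, which supplies acetoacetyl-CoA, at 0.35 (SE 0.35). Each of these intervals includes 0. Without sheep 2, 8 and 11, whose PE/LPS pieces have the longer titles, the values of MVK, MVD, PMVK, FDPS and FDFT1 were all nearer 0, at -0.25 (SE 0.31), -0.07 (SE 0.29), -0.03 (SE 0.60), -0.00 (SE 0.35) and -0.16 (SE 0.38).

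The enzymes that turn squalene epoxide into cholesterol were divided too. LSS, which closes the sterol rings, was at 0.01 (SE 0.37). TM7SF2, a sterol reductase, and NSDHL, a sterol dehydrogenase, were at -0.49 (SE 0.23) and -0.59 (SE 0.37). MSMO1, which removes the methyl groups at one carbon of the ring together with NSDHL and HSD17B7, was at 0.41 (SE 0.33) and HSD17B7 at 0.16 (SE 0.29). Without sheep 2, 8 and 11, LSS was at -0.07 (SE 0.46), NSDHL at 0.01 (SE 0.38) and HSD17B7 at -0.25 (SE 0.34), so that each of these changed sign. TM7SF2 was then at -0.26 (SE 0.32) and MSMO1 at 0.34 (SE 0.50). SC5D, a desaturase, was at 0.23 (SE 0.20, higher in 6 of 7 sheep), and DHCR7, the last reductase of a branch to cholesterol, at 0.06 (SE 0.26).

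FASN, which assembles palmitate, ranged from 8.10 to 24.98 CPM with a median of 15.3 in PE/LPS and from 17.6 to 38.2 CPM with a median of 25.5 in saline pieces. The control pieces of sheep 7, 9, 10 and 18 had 19.2, 13.5, 17 and 27.8 CPM. The PE/LPS range ran lower than the saline range, with an overlap between 17.6 and 24.98 CPM. FASN averaged 16.7 ± 7.08 CPM in the PE/LPS and 26.6 ± 7.90 CPM in the saline pieces (SD, n = 7 each). Its within-sheep log2 fold change was -0.74 (SE 0.30, interval -1.33 to -0.16, edgeR p = 0.0271, adjusted p = 0.771), lower in 5 of 7 sheep, and -0.24 (SE 0.35) without sheep 2, 8 and 11.

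ACACA, the acetyl-CoA carboxylase that supplies FASN with malonyl-CoA, was lower in 6 of 7 sheep (-0.56, SE 0.28), and it was at -0.30 (SE 0.38) without sheep 2, 8 and 11. ACLY, which makes the acetyl-CoA from citrate, had 30.9 to 63.6 CPM with a median of 53.2 in PE/LPS, 36.5 to 52.8 CPM with a median of 50.7 in saline, and 38.9, 28.9, 34.5 and 51.6 CPM in the control pieces of sheep 7, 9, 10 and 18. Its fold change was 0.07 (SE 0.22), so it did not share the negative values of ACACA and FASN. SCD, the desaturase that makes oleate, had 49.3 to 89.1 CPM with a median of 79.2 in PE/LPS, 69.2 to 164.8 CPM with a median of 81.3 in saline, and 91.9, 54.1, 60.4 and 58.2 CPM in the control pieces in the same order. It was lower in 5 of 7 sheep (-0.37, SE 0.23), and the ranges overlapped widely.

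ELOVL5, which lengthens polyunsaturated fatty acids, had the highest fold change of the fatty acid arm. It ranged from 19.3 to 57.5 CPM with a median of 37.8 in PE/LPS and from 23.4 to 35.5 CPM with a median of 25.9 in saline pieces, while the control pieces of sheep 7, 9, 10 and 18 lay close together at 28.2, 28.7, 29.6 and 26.3 CPM. The log2 fold change was 0.44 (SE 0.23, higher in 6 of 7 sheep, edgeR adjusted p = 0.771), and 0.09 (SE 0.29) without sheep 2, 8 and 11. ELOVL1, an elongase of very long chains, ELOVL6, which lengthens palmitate, and FADS1 and FADS2, the desaturases of polyunsaturated fatty acids, were at 0.14 (SE 0.23), -0.22 (SE 0.34), 0.02 (SE 0.23) and 0.35 (SE 0.29). None of them departed from 0 by 2 standard errors. Without sheep 2, 8 and 11 they were at 0.05 (SE 0.34), -0.41 (SE 0.46), 0.11 (SE 0.34) and 0.71 (SE 0.33). ELOVL6, FADS1 and FADS2 were thus farther from 0 and ELOVL1 nearer. FADS2 then lay more than 2 standard errors from 0 (edgeR p = 0.060) and did not pass after adjustment.

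**Figure D1:**
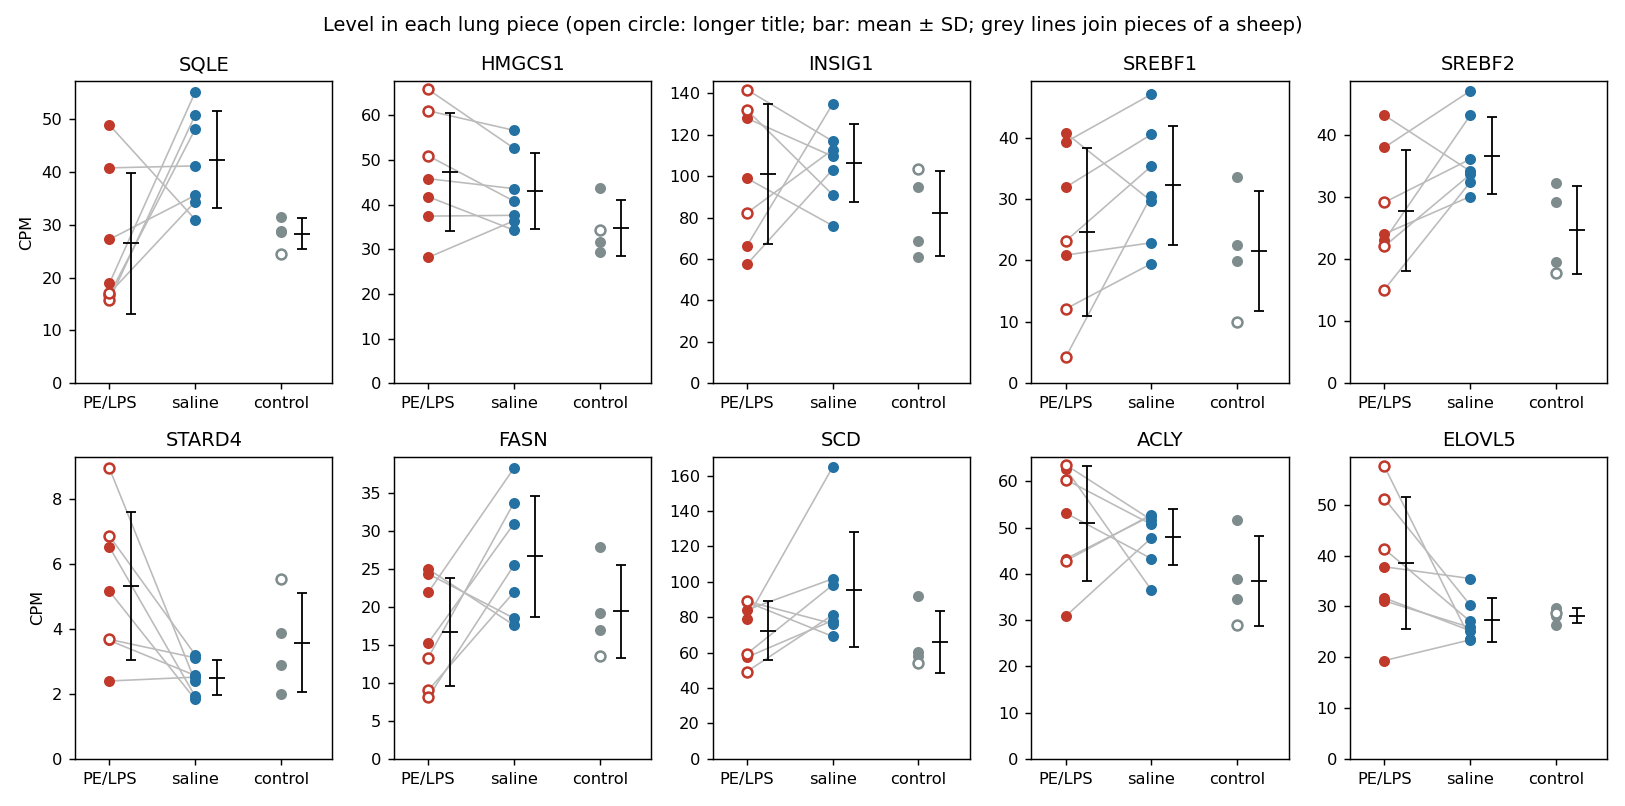
CPM of 10 of the genes (y axis, from 0) in each PE/LPS, saline and control piece (x axis); points are pieces, open circles have a longer title, grey lines join the pieces of a sheep, and bars are mean ± SD. SQLE and FASN lie lower and STARD4 and ELOVL5 higher in most PE/LPS pieces than in the saline pieces of the same sheep, with overlap in each panel.

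Among the regulators, SREBF2 had 15.1 to 43.2 CPM with a median of 24.1 in PE/LPS and 30.1 to 47.1 CPM with a median of 34.2 in saline pieces. Its control pieces held 19.6, 17.8, 29.2 and 32.2 CPM in sheep 7, 9, 10 and 18. SREBF2 was lower in PE/LPS in 6 of 7 sheep, with a log2 fold change of -0.45 (SE 0.22), and sheep 16 went the other way. SREBF1 had 4.22 to 40.8 CPM with a median of 23.1 in PE/LPS, 19.5 to 47.1 CPM with a median of 30.6 in saline, and 19.9, 9.97, 22.5 and 33.6 CPM in the control pieces in the same order. It was lower in 6 of 7 sheep (-0.57, SE 0.33), with the lowest value in the PE/LPS piece of sheep 2 and -0.08 (SE 0.29) without sheep 2, 8 and 11. INSIG1, the brake on both and itself a target of them, had 57.4 to 141.7 CPM with a median of 98.95 in PE/LPS, 76.1 to 134.9 CPM with a median of 109.5 in saline, and 94.8, 103.5, 60.8 and 68.9 CPM in the controls. Its fold change was -0.12 (SE 0.26), with 4 sheep higher and 3 lower, and -0.33 (SE 0.36) without sheep 2, 8 and 11. SREBF2 was at -0.31 (SE 0.31) without these sheep.

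STARD4, which moves cholesterol between membranes, was measured at 2.40 to 8.96 CPM with a median of 5.17 in PE/LPS and 1.83 to 3.21 CPM with a median of 2.52 in saline pieces. The control pieces of sheep 7, 9, 10 and 18 had 3.90, 5.55, 1.99 and 2.90 CPM. All PE/LPS pieces but that of sheep 1 lay above the highest saline piece. The log2 fold change was 1.00 (SE 0.37, interval 0.27 to 1.72, edgeR p = 0.0187, adjusted p = 0.771), higher in 6 of 7 sheep, and 0.92 (SE 0.53) without sheep 2, 8 and 11. The gene had few counts: the log2 CPM of single libraries of a piece spread with an SD of 1.22, against 0.786 between the piece means of a group. Over all 29 genes the spread between piece means was the wider in 25, with medians of 0.511 between piece means and 0.370 between libraries. These values were scaled by library totals over 53 libraries. Single libraries and means of libraries are not like measures, so the SDs compare only roughly.

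**Figure D2:**
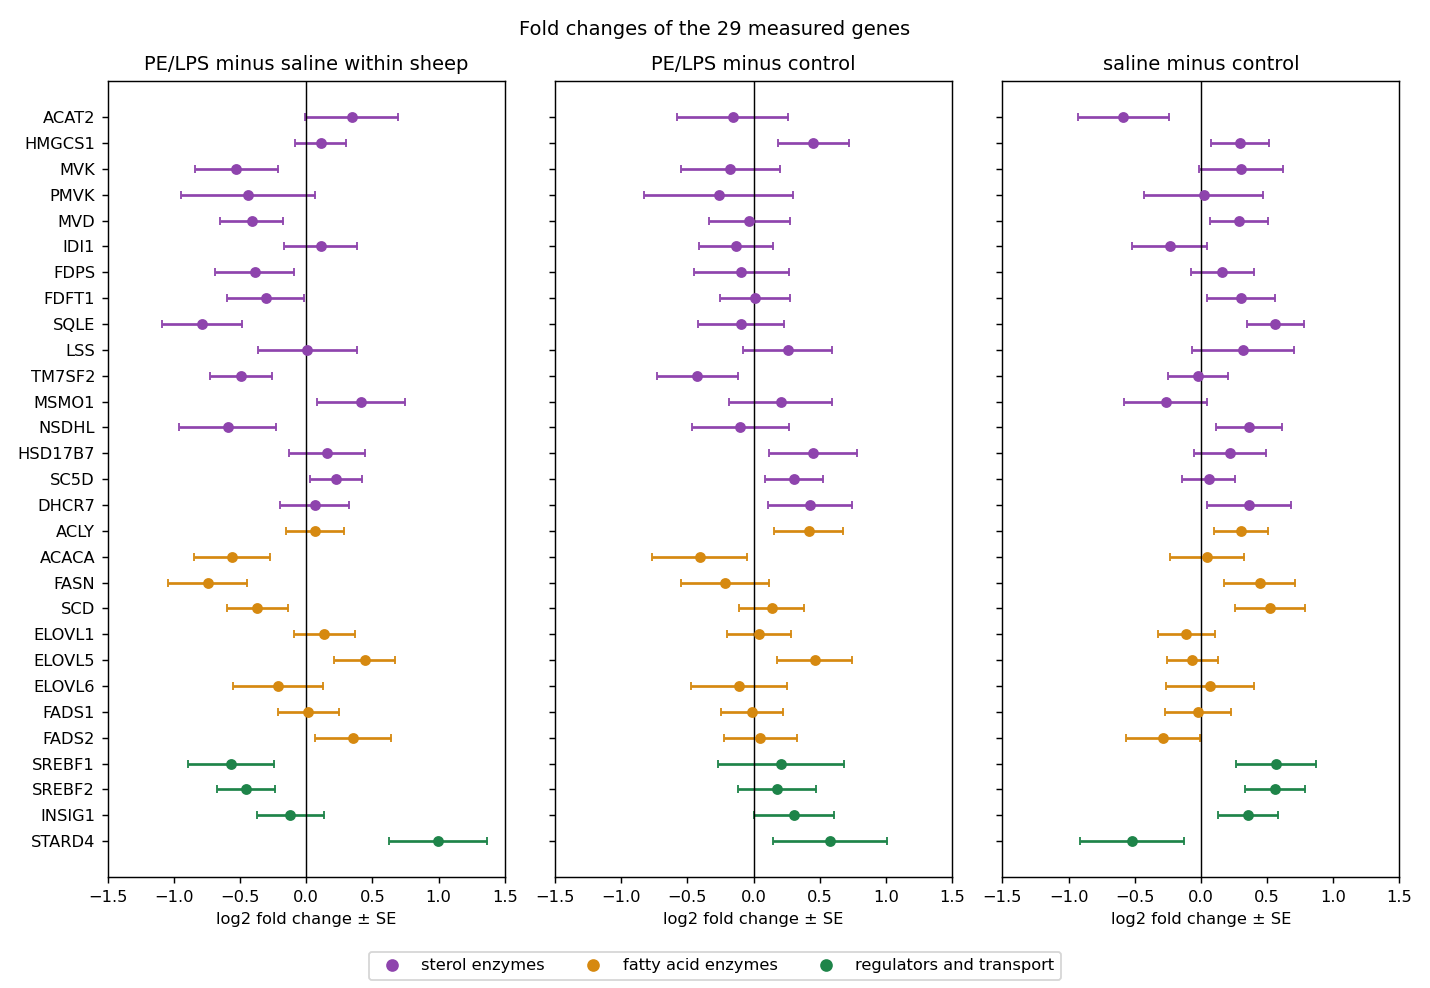
Log2 fold change ± SE (x axis) of the 29 genes (y axis) for PE/LPS minus saline within sheep, PE/LPS minus control and saline minus control; colours mark the arms. SQLE (-0.79), FASN (-0.74) and STARD4 (1.00) lie farthest from 0 in the first panel, and each comparison holds values of both signs in both arms.

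No gene of the 29 had the same direction in all 7 sheep. The closest to that were 10 genes: MVK, MVD, SQLE, ACACA, SREBF1 and SREBF2 were lower in 6 sheep, and MSMO1, SC5D, ELOVL5 and STARD4 were higher in 6. How many of all genes tested kept a direction in 6 or 7 sheep was not counted. The sterol enzymes differed in direction from sheep to sheep. In sheep 14, 13 of the 16 sterol enzymes were higher in the PE/LPS piece, with a median log2 CPM difference of 0.82. In sheep 16, 13 of 16 were lower, with a median of -0.87. The medians were -0.99 in sheep 8 and -0.47 in sheep 2, and they lay between -0.07 and 0.06 in sheep 1, 11 and 15. MSMO1, chosen here after its values were seen, shows the contrast: its difference was 1.61 in sheep 14 and -1.52 in sheep 16.

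The fatty acid enzymes spread less between sheep, with medians from -0.33 in sheep 2 to 0.33 in sheep 14. In sheep 16 the fatty acid median was 0.30, with 5 enzymes higher and 4 lower, while the sterol median was -0.87. ACACA and LSS were the members that stood highest in sheep 16, at 0.95 and 1.61, and SQLE, MSMO1 and NSDHL stood at -1.54, -1.52 and -1.13 there. Of the regulators, SREBF1 had the widest range over sheep, with -2.83 in sheep 2 and 0.46 in sheep 14.

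**Figure D3:**
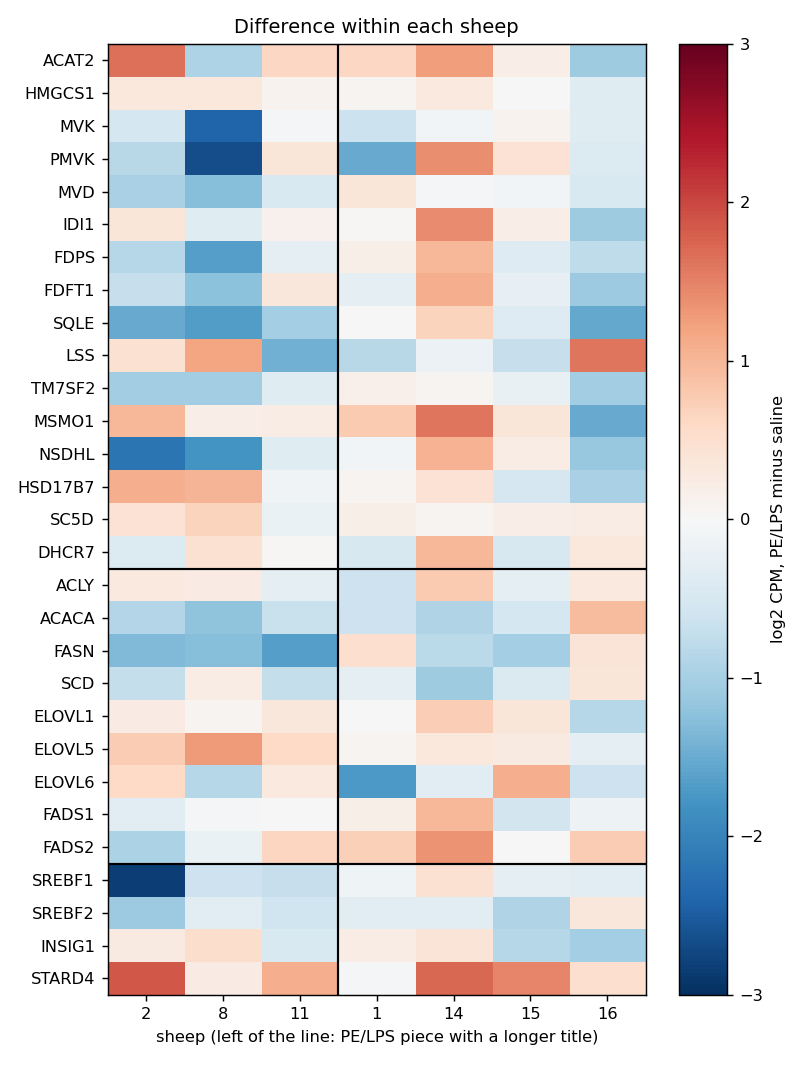
Difference in log2 CPM, PE/LPS minus saline (colour; red is higher in PE/LPS), for each gene (y axis; lines part sterol enzymes, fatty acid enzymes and regulators) in each sheep (x axis). The sterol enzymes are mostly red in sheep 14 and mostly blue in sheep 16, and no row keeps its colour over all sheep.

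The titles divided the PE/LPS pieces in some of these genes. In 7 of the 29 (MVK, MVD, SQLE, TM7SF2, NSDHL, ACACA and FASN) the pieces of sheep 2, 8 and 11 all lay below the other 4 PE/LPS pieces, and in HMGCS1 and ELOVL5 all 3 lay above them. These are 24.1% and 6.90% of the 29 genes, against 2827 (16.7%) and 1740 (10.3%) of the 16944 genes tested within sheep. For SQLE they held 16.8, 15.7 and 17 CPM and the other 4 held 18.9 to 48.9 CPM. For ELOVL5 they held 51.2, 57.5 and 41.3 CPM and the other 4 held 19.3 to 37.8 CPM. The labels do not say what the longer titles stand for, and their part in these differences was not tested. Without these sheep the median of the sterol enzymes was -0.02 and that of the fatty acid enzymes 0.03.

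Markers of other cell types were read in the same pieces, and none of them passed the edgeR threshold within sheep. Of 10 alveolar type 2 markers, 9 had negative within-sheep fold changes, with a median of -0.61, and the median was -0.21 without sheep 2, 8 and 11. Their summed level was 4807 to 128535 CPM in PE/LPS, 22592 to 102780 CPM in saline and 24823 to 57919 CPM in control pieces. Of 6 ciliated cell markers, 6 were negative with a median of -0.77, and their sum was 139 to 398 CPM in PE/LPS, 286 to 422 CPM in saline and 227 to 481 CPM in control pieces. At an unadjusted p under 0.05 stood 2 of the type 2, 4 of the ciliated, 2 of the fibroblast and 1 of the club cell markers, all lower. So did 1 endothelial marker and the red blood cell marker, both higher, and 0 of the macrophage and the B and plasma cell markers. Of all genes tested, 976 (5.76%) stood at that level, and 52.8% had negative values. Of 5 fibroblast markers 4 were negative with a median of -0.66, and their sum was 1280 to 2129 CPM in PE/LPS, 1263 to 5353 CPM in saline and 1300 to 2157 CPM in control pieces. Of 3 club cell markers 2 were negative with a median of -0.51, and of 5 markers of B and plasma cells 4 were negative with a median of -0.22. On the other side, 4 of 5 endothelial markers were positive with a median of 0.32, 6 of 9 macrophage markers were positive with a median of 0.26, and the single red blood cell marker tested was at 1.88. The part of any of these cell types in the values of the synthesis genes was not tested.

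The summed level of the 16 sterol enzymes averaged 557 ± 128 CPM in PE/LPS, 535 ± 96.1 CPM in saline (SD, n = 7 each) and 529 ± 93.9 CPM in control pieces (n = 4). For the 9 fatty acid enzymes it was 256 ± 27.6 CPM in PE/LPS, 275 ± 30.5 CPM in saline and 233 ± 23.9 CPM in control pieces. MSMO1, the most abundant sterol enzyme, held much of the sterol sum, with 207 ± 86.3 CPM in PE/LPS, 152 ± 48.4 CPM in saline and 180 ± 61.1 CPM in control pieces. The other 15 sterol enzymes summed to 351 ± 61.3 CPM in PE/LPS, 383 ± 55.3 CPM in saline and 349 ± 32.8 CPM in control pieces, so that the order of the PE/LPS and saline means depended on MSMO1. The group means of the full sterol sum differed by less than an SD, and the saline mean of the fatty acid arm exceeded the control mean by more than an SD, a difference not tested.

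**Figure D4:**
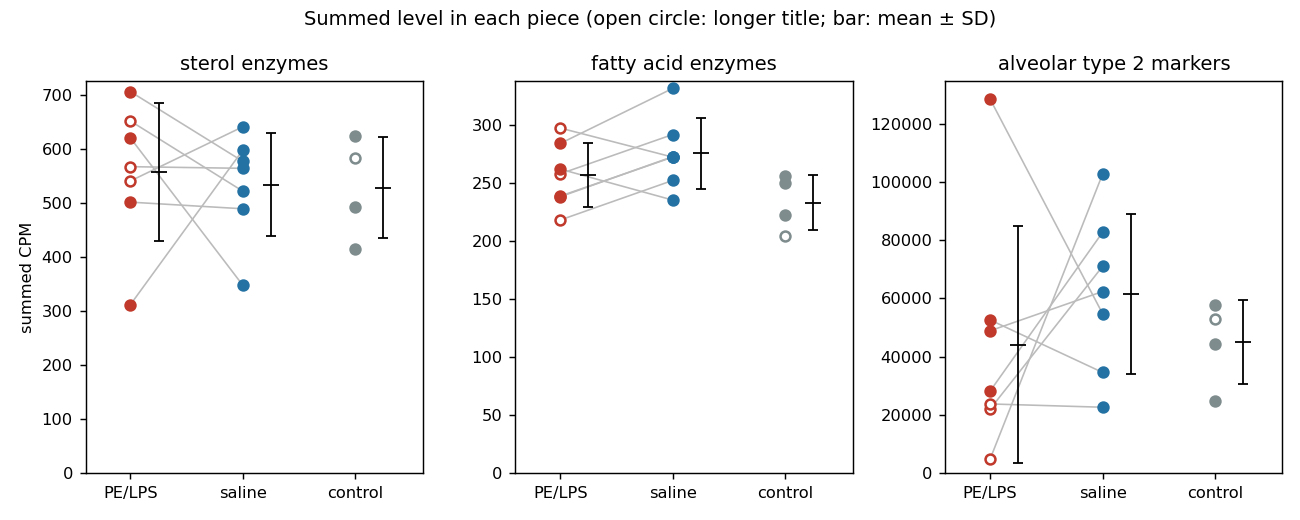
Summed CPM (y axis, from 0) of the 16 sterol enzymes, the 9 fatty acid enzymes and 10 alveolar type 2 markers in each PE/LPS, saline and control piece (x axis); open circles have a longer title, grey lines join the pieces of a sheep, bars are mean ± SD. The sterol sums average 557 CPM in PE/LPS, 535 in saline and 529 in control pieces and overlap throughout, while the marker sums spread most in PE/LPS.

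Whether members moved together over the 7 sheep was asked of 11 pairs of genes, using the within-sheep differences in log2 CPM. None of the 11 passed after Benjamini-Hochberg adjustment of exact permutation tests (two-sided, 5040 orders). SQLE and HMGCS1, both classical targets of SREBF2, gave Pearson r = 0.15 (exact permutation p = 0.833, adjusted 0.833) and Spearman rho = -0.21 (p = 0.662, adjusted 0.910), and r = -0.18 without sheep 1 and 14. In sheep 2, 8 and 11 the SQLE differences were -1.52, -1.69 and -1.01 and those of HMGCS1 0.32, 0.32 and 0.11, so that the genes had opposite signs. In sheep 16, 15, 1 and 14 they were -1.54, -0.38, -0.01 and 0.66 for SQLE and -0.37, -0.01, 0.07 and 0.29 for HMGCS1, the same order of sheep for both genes. The genes had opposite signs in sheep 1 as well. A difference between the sheep with and without longer titles was not tested, and 4 sheep are too few for a correlation of their own. SQLE and IDI1 gave r = 0.74 (exact permutation p = 0.0587, adjusted 0.323) and rho = 0.64 (p = 0.139, adjusted 0.509), and r = 0.48 without the same sheep. For FASN and the type 2 cell gene SLC34A2, the sheep with longer titles lay apart from the others in both measures, with at most -1.28 and -1.11 against at least -1.02 and -0.75. No pooled r is given for them, and with 3 and 4 sheep the relation could not be tested within either set of sheep.

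PE/LPS pieces were next set against the control sheep. The sterol arm had 7 positive and 9 negative log2 fold changes with a median of -0.06, and the fatty acid arm 5 and 4 with a median of 0.04, beside 0.02 over all genes tested. The sign of the sterol median depended on the setting: it was 0.13, with 11 positive and 5 negative values, without the pieces with longer titles, 0.06 against the LC control pieces, and 0.07 and 0.05 with libraries 2 and 3 alone. By edgeR 0 of the 29 genes and 0 of 18340 in all (0%) passed, with a smallest adjusted p of 0.999935 among the 29, and DESeq2 and voom called 0 genes. At an unadjusted p under 0.05 stood 0 of the 29, against 234 of all genes (1.28%). The smallest p of the 29 belonged to HMGCS1 (0.45, SE 0.27), ELOVL5 (0.46, SE 0.28) and ACLY (0.42, SE 0.26). They were at 0.12 (SE 0.27), 0.09 (SE 0.28) and 0.18 (SE 0.28) without the pieces with longer titles. SQLE was at -0.09 (SE 0.33, interval -0.74 to 0.55) and FASN at -0.21 (SE 0.33, interval -0.87 to 0.44), and both were positive without the longer titles (0.19 and 0.01). The 4 regulators were all positive (SREBF2 0.18, SREBF1 0.21, INSIG1 0.30 and STARD4 0.57), but SREBF1 and SREBF2 were at -0.19 and -0.14 against the LC control pieces alone.

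Saline pieces of the exposed sheep were set against the control sheep last. Of the 16 sterol enzymes 12 had positive and 4 negative log2 fold changes, with a median of 0.25 beside 0.01 over all genes tested. That median was 0.11 with library 3 alone, 0.38 under scaling by library totals and 0.40 against the RA control pieces. The 9 fatty acid enzymes had 5 positive and 4 negative values with a median of 0.05. By edgeR 0 of the 29 genes and 0 of 18289 in all (0%) passed, the smallest adjusted p of the 29 was 0.939, DESeq2 called 6 genes, none of them among the 29, and voom 0. At an unadjusted p under 0.05 stood 2 of the 29 (6.90%), against 898 of all genes (4.91%).

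SQLE was the first of the pair, at 42.3 ± 9.20 CPM in saline (SD, n = 7) and 28.3 ± 2.86 CPM in control pieces (n = 4). Its log2 fold change was 0.56 (SE 0.22, edgeR p = 0.0187, adjusted p = 0.939). A single saline piece, of sheep 14 with 31 CPM, lay below the highest control piece with 31.5 CPM. SREBF2, the other, averaged 36.7 ± 6.17 CPM in saline and 24.7 ± 7.09 CPM in control pieces (0.56, SE 0.23, edgeR p = 0.0247, adjusted p = 0.939). SCD was at 0.52 (SE 0.26), SREBF1 at 0.57 (SE 0.30), FASN at 0.44 (SE 0.27) and INSIG1 at 0.36 (SE 0.23). ACAT2 at -0.59 (SE 0.34) and STARD4 at -0.52 (SE 0.39) were the lowest of the 29. The control mean of ACAT2 includes the piece of sheep 9 with 30.7 CPM, and its fold change was -0.19 (SE 0.34) without that piece. STARD4 was then at -0.22 (SE 0.42), SREBF1 at 0.34 (SE 0.28) and SREBF2 at 0.44 (SE 0.23). SQLE was at 0.51 (SE 0.23), SCD at 0.45 (SE 0.29), FASN at 0.32 (SE 0.28) and INSIG1 at 0.51 (SE 0.24) without it. The 10 type 2 cell markers were all positive in this comparison, with a median of 0.60, and 5 of them stood at an unadjusted edgeR p under 0.05. Of all genes tested, 51.5% were positive and 898 (4.91%) stood at that level. The part of these markers in the values of the synthesis genes was not tested. PE/LPS minus saline and saline minus control share the saline pieces, so that opposite values of SQLE, FASN and SREBF2 in them are not independent.

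The letter codes could be compared without treatment in the 4 control sheep, 2 LC against 2 RA. By edgeR 0 of the 29 genes and 0 of 18063 in all (0%) passed, and at an unadjusted p under 0.05 stood 0 of the 29, against 670 of all genes (3.71%). No other tool was run on these pieces. SREBF1 was at 33.6 and 22.5 CPM in the LC pieces and 19.9 and 9.97 CPM in the RA pieces, a log2 fold change of 0.91 (SE 0.46, edgeR adjusted p = 0.987). SREBF2 was at 32.2 and 29.2 CPM in LC and 19.6 and 17.8 CPM in RA pieces (0.71, SE 0.37). Both fold changes had a sign opposite to that of PE/LPS (LC) against saline (RA), and neither passed the test. In how many of all genes the 2 LC pieces lay apart from the 2 RA pieces was not counted. STARD4, at 1.99 and 2.90 CPM in LC and 3.90 and 5.55 CPM in RA pieces (-0.96, SE 0.66), also had a sign opposite to that of PE/LPS against saline. The sterol arm had a median of 0.20 with 10 positive and 6 negative values, the fatty acid arm 0.09 with 6 and 3, and SQLE was at 0.17 (SE 0.36). Ciliated cell markers had a median of 1.08, with 6 of 6 positive and 3 of them at an unadjusted p under 0.05, and club cell markers 0.70, with 3 of 3 positive. The piece of sheep 9, which has a longer title, is 1 of the 2 RA pieces.

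The PE/LPS minus saline difference was also tested against the LC minus RA difference of the control sheep, with voom and a random block for sheep in limma. Of the 29 genes 0 passed, as did 0 of 20719 in all (0%), and the smallest adjusted p of the 29 was 0.729. At an unadjusted p under 0.05 stood 3 of the 29, against 1264 of all genes (6.1%). These were STARD4 (1.78, SE 0.66, limma p = 0.0135), SREBF2 (-1.11, SE 0.45, limma p = 0.0232) and MVK (-1.48, SE 0.63, limma p = 0.0292), each with an adjusted p of 0.729. The PE/LPS minus saline difference of MVK was -2.40 in sheep 8 and between -0.63 and 0.12 in the other sheep. The code part of the contrast rested on 2 LC and 2 RA control pieces, 1 of them with a longer title. No other setting was run for this contrast. The sterol enzymes had 5 positive and 11 negative values with a median of -0.35, and the fatty acid enzymes 3 and 6 with a median of -0.14, beside -0.05 over all genes tested. Ciliated cell markers had a median of -1.55 in this contrast, with 6 of 6 negative, fibroblast markers -1.65 with 5 of 5 and club cell markers -1.45 with 3 of 3. Their part in the values of the synthesis genes was not tested. Against the control pieces of their own code, the saline (RA) pieces had SREBF2 at 0.95 (SE 0.29) and SREBF1 at 1.09 (SE 0.38), and the PE/LPS (LC) pieces had STARD4 at 1.11 (SE 0.57), none of them past the edgeR threshold.

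Genes around the pathway were read from lists of neighbouring steps, and none of them passed the edgeR threshold in the 3 treatment comparisons. Within sheep, 1 of 13 tested genes of other synthesis and desaturation steps was higher and 1 lower at an unadjusted p under 0.05, a level that 976 of all genes tested (5.76%) reached. The lower one was ACSS2, which makes acetyl-CoA from acetate: it averaged 17 ± 6.26 CPM in the PE/LPS and 32.7 ± 16.9 CPM in the saline pieces (SD, n = 7 each). It was lower in 7 of 7 sheep (-0.88, SE 0.22, edgeR p = 0.00179, adjusted p = 0.771). In saline minus control it was at 0.81 (SE 0.33). The higher one was GGPS1, which makes geranylgeranyl pyrophosphate from the sterol precursor FPP (0.70, SE 0.28), and it was at -0.74 (SE 0.28) in saline minus control. The 2 comparisons share the saline pieces, so that the opposite values of ACSS2 and GGPS1 are not independent. ACSS2 averaged 18.5 ± 4.22 CPM in the control pieces (SD, n = 4). GGPS1 averaged 28.6 ± 13.3 CPM in the control and 30.7 ± 15.1 CPM in the PE/LPS pieces. Of 11 genes of glycerolipid and phosphatidylcholine synthesis, 1 was higher (CEPT1, 0.61, SE 0.26) and 2 were lower (DGAT1 and AGPAT2). DGAT1, the last enzyme of triglyceride synthesis, averaged 3.51 ± 1.69 CPM in the PE/LPS and 7.80 ± 2.68 CPM in the saline pieces, lower in 7 of 7 sheep (-1.21, SE 0.33, edgeR p = 0.00285, adjusted p = 0.771). How many of all genes tested were lower in 7 of 7 sheep was not counted. AGPAT2, an earlier acyltransferase, was at -0.64 (SE 0.29).

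Of 8 genes of sterol efflux, esterification and storage, 1 was higher at that level, NPC1, which exports cholesterol from lysosomes (0.58, SE 0.22), and 0 were lower. Of 10 genes of fatty acid activation and oxidation, 1 was lower, the acyl-CoA synthetase ACSL5 (-0.59, SE 0.27). Of 7 further genes that control the pathway 0 stood at that level. Against the control sheep, DGAT1 was the single gene of these lists at that level in PE/LPS tissue (-0.85, SE 0.40), and ACSS2, GGPS1 and ACSL5 (0.49, SE 0.21) were those in saline tissue, beside 1.28% and 4.91% of all genes tested in these comparisons. The medians of these lists within sheep ran from -0.22 for the control genes to 0.07 for efflux and storage, around the -0.03 of all genes tested.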

How the data were processed

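RNA of 18 sheep lung pieces was sequenced as 54 libraries. Per the labels' protocols, the index was added at poly-A priming, and template switching, tagmentation and PCR completed the libraries. The authors deposited raw counts per gene and library as whole numbers. The submitters' processing notes list, without roles, STAR 2.7.10b, Subread 1.6.3, featureCounts, edgeR 3.40.2, Trimmomatic 0.39 and FastQC 0.11.9. Not given in the sources used here were the genome build, the strand setting and any use of molecular identifiers. Reads of overlapping, antisense or near-identical genes therefore cannot be told apart. No column was without a sample.

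The 3 libraries of a piece were summed. Tests used R 4.3.3 and the robust quasi-likelihood test of edgeR 4.0.16 (TMM scaling, filterByExpr at 10 counts and a total of 15, Benjamini-Hochberg adjustment at 0.05 over all genes tested), with the sheep as a block for PE/LPS minus saline. limma 3.58.1 and DESeq2 1.42.0 gave the code contrast and alternatives. CPM used TMM-scaled totals and log2 CPM a prior count of 2. The fitting steps were run on simulated data, with the outcome not given here. The simulated counts held no differences between sheep and no split by title, so they could not test the pairing. By the numbers in the titles, the pieces of a group came from different sheep. The sheep pair the pieces because the series' design text has saline and PE/LPS lobes in the same animals. As a check over 5153 genes with a mean log2 CPM above 5, same-sheep deviations correlated above 0.1 in 4 of 7 pairs (-0.504 to 0.504). The mean correlation was 0.033 within sheep and 0.00014 between sheep, and 2 of 7 PE/LPS pieces correlated best with their own saline piece. The values alone thus do not show the pairing.

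The 32 genes, the lists around them and the tests were chosen with earlier results of these data known. Values in every piece are given for HMGCS1, SQLE, INSIG1, SREBF1, SREBF2, FASN and SCD and for the 3 genes with the smallest p in each treatment comparison, and the others by fold change and SE. Lists got no test. A gene of the neighbouring steps is not reported here. Alternatives were other scalings, filters, tools, prior counts and single libraries, each sheep left out, the longer titles left out, code-matched controls and no block.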

Additional observations from a re-analysis of the deposited data

Results flagged for a closer look

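In 5 of 87 groups tested (29 genes in 3 groups), a single piece lay far from the others of its group relative to the group's range, and chance alone gives about 1 such group in 20. IDI1 was lowest in the PE/LPS piece of sheep 16 at 41.6 CPM, with the next PE/LPS piece at 69.2 CPM. ACACA was highest in that same piece at 17.9 CPM, with the next at 10.2 CPM. SCD was highest in the saline piece of sheep 14 at 164.8 CPM, with the next saline piece at 101.7 CPM, and in the control piece of sheep 7 at 91.95 CPM, with the next control piece at 60.4 CPM. ACAT2 was highest in the control piece of sheep 9, which has a longer title, at 30.7 CPM, with the next control piece at 15.0 CPM.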

How the results depend on the processing

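None of the 29 genes passed in any of 18 settings of PE/LPS minus saline or 22 of each other treatment comparison. Without the replicate block, that is without pairing the pieces by sheep, edgeR called 1 gene in PE/LPS minus saline. It called 1 without a low-count filter and 0 to 1 with a sheep left out (1 without sheep 1), and DESeq2 called 47 there and 6 in saline minus control. The median of the fatty acid enzymes in PE/LPS minus saline was -0.22 with library 1 alone and ran from -0.14 to 0.10 with a sheep left out. The sterol median in PE/LPS minus saline was lowest with sheep 14 left out (-0.28) and highest with sheep 1 left out (-0.06), and in PE/LPS minus control a sheep left out gave -0.16 to 0.04. In saline minus control the fatty acid median was 0.17 under scaling by library totals, which moved the median of all genes to 0.16 there (0.01 with TMM) and to -0.13 in PE/LPS minus saline.

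Over all 29 genes, 141 of 1711 values under these alternatives changed sign (31 in PE/LPS minus saline, 66 in PE/LPS minus control and 44 in saline minus control). The 10 genes given in every piece held 14 of these, in 590 values, and the cause was not tested. In PE/LPS minus saline these were HMGCS1 without the longer titles (-0.013), ACLY by library totals (-0.026) and with a sheep left out (-0.048 to 0.18), and INSIG1 with a sheep left out (-0.23 to 0.031). In PE/LPS minus control they were SQLE with library 2 alone (0.0925) and without longer titles (0.19), FASN with library 3 alone (0.22), without longer titles (0.0095) and with a sheep left out (-0.36 to 0.0040), SREBF1 with a sheep left out (-0.046 to 0.50), and SREBF1 and SREBF2 against code-matched controls (-0.19 and -0.14). In saline minus control they were STARD4 with library 1 alone (0.48) and ELOVL5 by library totals (0.10).

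Pieces number 4 to 7 a group, and low counts limit STARD4 and PMVK most. The intervals in the report use a normal quantile and are somewhat narrow for so few pieces.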
